A study of Mus musculus with 18 samples.

Results

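The genes described here are 9 textbook targets and components of the glucocorticoid response: Nr3c1, Fkbp5, Tsc22d3, Per1, Klf9, Zbtb16, Cebpb, Cebpd and Sgk1. They were chosen by name, as the array probes whose gene name in the scanner files is 1 of these 9. By that name 16 of 41174 probes belonged to 7 of the genes. After old names were updated there were 18 probes for 8 genes, since Sgk1 stands in the files as Sgk. Zbtb16, for a zinc finger factor raised by glucocorticoids, had no probe under that name and is not analysed here. All 8 other genes had a probe past the filter on dim probes and were among the 13545 genes tested.

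Whole blood of 18 male C57BL/6N mice aged 8 to 12 weeks was profiled on Agilent 1-colour arrays, 1 array per mouse. Mice received 8 Gy (n = 6) or 2 Gy (n = 5) of gamma rays from a cesium source, or a sham treatment (0 Gy, n = 7). Blood was taken by cardiac puncture 6 hours later, and globin RNA was removed from every sample. RNA came from the RiboPure kit in all 6 mice at 8 Gy, in 4 of 5 at 2 Gy and in 5 of 7 at 0 Gy, and from the PAXgene kit in the other 3 mice. The aim of the series was to find blood RNAs that mark radiation exposure. The question for these 9 genes is whether a stress hormone response can be told from more neutrophil RNA in the sample.

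Glucocorticoids (corticosterone in the mouse) cross the cell membrane and bind the glucocorticoid receptor, the product of Nr3c1, which waits in the cytoplasm in a complex of chaperones. The receptor then moves to the nucleus, binds short DNA elements, raises genes such as Fkbp5, Tsc22d3 and Per1, and lowers many genes of inflammation. In blood these hormones are also known to raise the number of circulating neutrophils and to lower that of lymphocytes. Several target genes, Cebpd and Cebpb among them, are also expressed in neutrophils.

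The DNA element that the receptor binds as a pair of molecules was looked for upstream of these genes, in an exact form and close to the start only. The exact motif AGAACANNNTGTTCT, which is its own reverse complement, was searched in the 250 bases before each RefSeq transcription start (GRCm38.p6). It was found in 3 of 32851 windows (0.00913%). Windows were matched for 6 of the 9 genes, 14 in all, and 1 of the 14 held the motif. That window lies before a start of Sgk1, at chr10:21993640-21993889 on the plus strand, with the element at bases -189 to -175 from the start. The shorter motif, AGAACA or on the other strand TGTTCT, which the full motif contains, was found in 5284 windows (16.1%) and in 4 of the 14 (28.6%): 3 of 6 windows of Sgk1 and 1 of 3 of Tsc22d3. The windows with the full motif of Sgk1 and the shorter motif of Tsc22d3 (chrX:140600523-140600772, minus strand) are printed 5′ to 3′ with the motif letters in capitals.
Sgk1: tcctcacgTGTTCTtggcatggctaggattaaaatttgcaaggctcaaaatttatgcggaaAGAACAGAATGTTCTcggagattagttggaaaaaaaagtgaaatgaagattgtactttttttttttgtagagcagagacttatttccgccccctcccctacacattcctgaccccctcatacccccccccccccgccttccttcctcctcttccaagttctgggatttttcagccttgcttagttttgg
Tsc22d3: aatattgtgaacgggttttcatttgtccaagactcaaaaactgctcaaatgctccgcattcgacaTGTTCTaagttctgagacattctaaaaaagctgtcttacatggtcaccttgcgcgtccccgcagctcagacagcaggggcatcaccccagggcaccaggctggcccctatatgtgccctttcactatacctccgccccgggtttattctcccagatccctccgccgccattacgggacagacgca
The windows of Fkbp5 (1), Per1 (2), Klf9 (1) and Cebpb (1) held neither motif in these bases. Inexact matches and DNA farther from the start were not searched, and the full motif was rare among all windows. Its absence therefore does not show that a gene is not a direct target. Neither Sgk1 nor Tsc22d3 passed the test at 8 Gy or at 2 Gy.

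Some measures of the arrays moved with dose. Array brightness, taken as the 75th percentile of processed intensity, spanned 138 to 425 at 0 Gy, 46.4 to 186 at 2 Gy and 58.4 to 232 at 8 Gy. Precision is limited by how many arrays there are. Labelled RNA of mature neutrophils was summarised by a score, the mean log2 level of 20 measured of 22 listed markers such as Trem1, Mcemp1 and Mmp9. The score spanned 2.22 to 4.72 at 0 Gy, 3.37 to 5.49 at 2 Gy and 4.35 to 5.79 at 8 Gy. At 8 Gy 7.63% of all genes tested were called higher and 4.4% lower. Of the 20 markers 19 rose and 0 fell, with a median log2 fold change of 2.14. The count was 14 with quantile normalization or the deposited table, and 7 with normexp (median 1.46). Of 15 B cell markers 14 fell, with a median of -3.23. In bulk blood, fewer cells of a type and less RNA per cell cannot be told apart. Of 15 T cell, 10 NK cell and 11 monocyte markers 0 passed in limma at 8 Gy, with 1, 2 and 2 at an unadjusted p under 0.05. Without the array labelled 0 Gy replicate 5, 2 NK cell markers rose, where 15.5% of all genes were called higher. With normexp 3 T cell markers fell (median -0.60), and 1 fell without 2 Gy replicate 3 or 8 Gy replicate 1. Of 12 platelet markers 4 rose, of 11 erythroid markers 1 rose (Epor), and of 3 measured eosinophil markers 1 fell (Il5ra, which cleared background on 2 of 6 arrays after 8 Gy and 6 of 7 after sham treatment). With each array left out in turn, the count of neutrophil markers that rose ran from 6 (without 0 Gy replicate 1) to 19, and was 12 without 0 Gy replicate 2 or 8 Gy replicate 3 or 5 and 8 without 8 Gy replicate 4 or 6. The platelet count ran from 0 to 12 (without 0 Gy replicate 5), and each array left out moved it. It was 0 with quantile normalization, normexp or the deposited table. The calls for Epor and Il5ra were lost without 0 Gy replicate 1, among others. A count of 1 in 11 erythroid markers is near the share of all genes called higher. The B cell count ran from 11 to 14. What part these cells had in the results for the 8 genes was not tested, beyond the fits on the neutrophil score.

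The array labelled 0 Gy replicate 5 stood apart from its group, as seen after its values were known. Its neutrophil score was 4.72, against 2.22 to 3.28 on the other 6 arrays at 0 Gy. Its B cell score was 0.28, against 1.96 to 3.01. Cdkn1a, a p53 target that responds to radiation, had a level of 1.28 on it, outside the -4.08 to -1.46 of the other 0 Gy arrays. That level lay within the range at 2 Gy (-0.3 to 1.62) and at 8 Gy (1.20 to 2.67). The array was kept at 0 Gy as labelled.

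Blood taken after 8 Gy held more Cebpd and Cebpb RNA than blood taken after 0 Gy, and the other 6 genes did not pass the threshold. Cebpd, for C/EBP delta, a transcription factor induced by glucocorticoids and in inflammation, rose 4.01-fold. Cebpb, for C/EBP beta, a factor of emergency granulopoiesis, rose 2.14-fold. Genes often used as readouts of the receptor had unlike estimates, and whether they differed from each other was not tested. Tsc22d3, Per1 and Klf9 had log2 fold changes between 0.03 and 0.25, while Fkbp5 had 1.70, which did not pass. Thus 2 of 8 genes were higher and 0 were lower, where 7.63% of all genes tested were called higher, 4.4% lower and 12% in either direction. The median log2 fold change was 0.33 over the 8 genes and 0.08 over all genes.

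**Figure D1:**
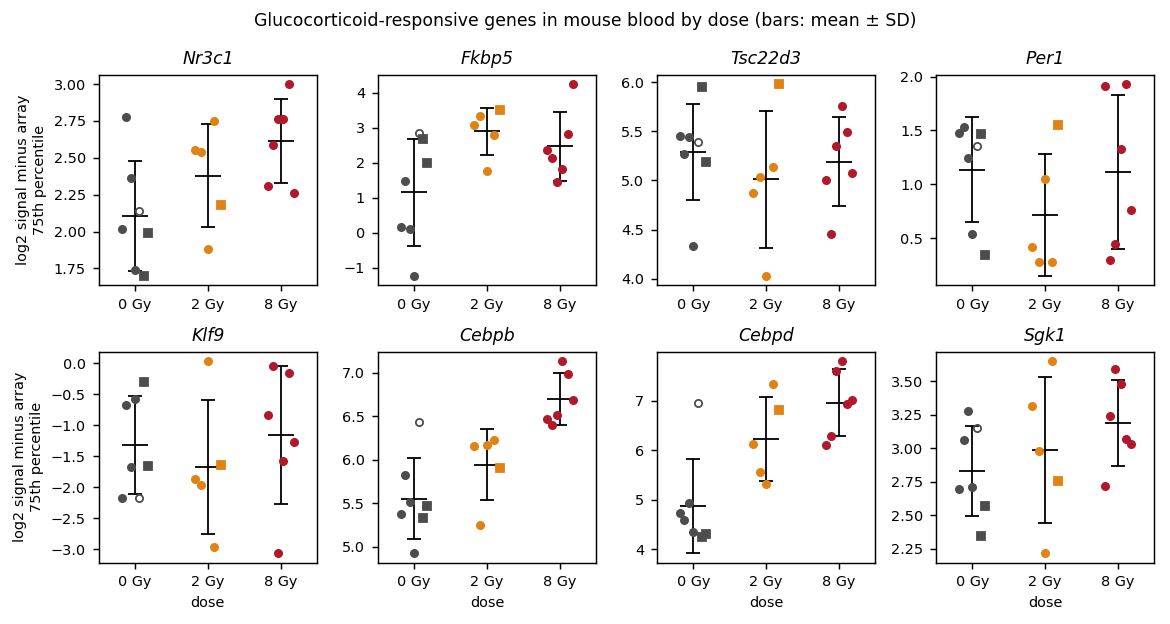
Level of each of the 8 measured genes (log2 signal minus the array's 75th percentile) on each array at 0, 2 and 8 Gy. Circles are RiboPure and squares PAXgene arrays, the open circle is 0 Gy replicate 5, and bars show the mean ± SD of the group. For Cebpb the 8 Gy arrays lie between 6.40 and 7.13, and only the open circle at 0 Gy, 6.43, reaches into that range.

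Nr3c1, for the receptor itself, had a level of 2.26, 2.67 and 3.00 at 8 Gy (lowest, median and highest; log2 signal relative to the array's 75th percentile, as for all levels here), against 1.70, 2.02 and 2.78 at 0 Gy. The groups overlapped. Its log2 fold change was 0.42 ± 0.21 (standard error, 6 against 7 arrays, limma adjusted p = 0.170). A pair of other probes of Nr3c1 gave 0.63 ± 0.30 and 0.46 ± 0.34, which did not pass either. A further probe did not pass the filter.

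Fkbp5 encodes a co-chaperone that binds the receptor complex and damps the response, and it is among the most sensitive glucocorticoid targets in blood. Its levels were 1.44, 2.24 and 4.24 at 8 Gy (lowest, median and highest) and -1.23, 1.48 and 2.85 at 0 Gy. The 0 Gy arrays spread widely, and 1 of 6 arrays at 8 Gy lay above them all. The log2 fold change was 1.70 ± 0.59 (adjusted p = 0.0645, unadjusted p = 0.0104). It was 2.16 ± 0.53 (adjusted p = 0.0122) without 0 Gy replicate 5. The PAXgene arrays at 0 Gy were 2.68 and 2.00, above every RiboPure array at 0 Gy except replicate 5. The kit difference, PAXgene minus RiboPure, was 1.34 ± 0.67 (adjusted p = 0.289).

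The 3 probes of Fkbp5 differed from each other, which was looked at after the values were seen. The probe that stands for the gene lies on chromosome 17 from 26587108 to 26587167 (minus strand, build mm7 in the files). A second probe, from 26586393 to 26586452, gave a log2 fold change of 1.23 ± 0.48 (adjusted p = 0.0987 over all probes) at 8 Gy and 0.13 ± 0.48 at 2 Gy. The third, from 26624510 to 26624569, was well above background on 16 of 18 arrays and gave 1.04 ± 0.59 (adjusted p = 0.236) at 8 Gy and 0.40 ± 0.59 at 2 Gy. All 3 were thus positive at 8 Gy, and none passed. Once dose and kit were removed, pairs of the Fkbp5 probes correlated over the 18 arrays with r = 0.15, 0.25 and 0.47. Probe pairs of Tsc22d3 reached 0.82 to 0.96, of Nr3c1 0.70 to 0.89, of Klf9 0.81 and of Cebpb 0.74. With 1 standing probe per gene, the genes whose residuals followed that of Fkbp5 most closely were Olfr524, Defb34 and Tas2r140 (r = 0.95, 0.94 and 0.93 over 18 arrays). These are an olfactory receptor, a defensin and a taste receptor gene. When other probes were included, 1 of Stab1 also reached r = 0.94.

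**Figure D2:**
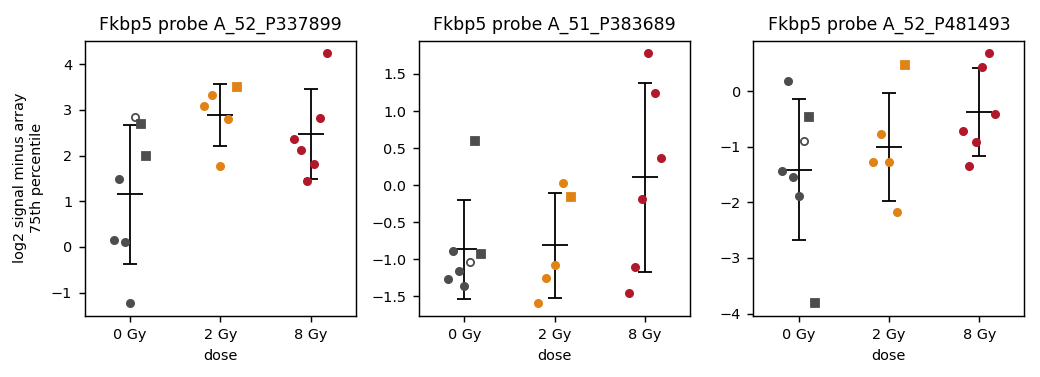
Levels of the 3 Fkbp5 probes by dose, 1 panel per probe and 1 point per array, with bars at the mean ± SD. The left probe stands for the gene. Circles are RiboPure and squares PAXgene arrays, and the open circle is 0 Gy replicate 5. At 2 Gy the left probe lies between 1.77 and 3.49, while the middle probe has a log2 fold change of 0.13 ± 0.48 against 0 Gy.

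Tsc22d3 encodes GILZ, a leucine zipper protein through which glucocorticoids restrain NF-kB and AP-1. Its levels were 4.46, 5.22 and 5.76 at 8 Gy (lowest, median and highest) and 4.33, 5.39 and 5.95 at 0 Gy. The groups overlapped fully: 0 of 6 arrays at 8 Gy lay above the 0 Gy arrays. The log2 fold change was 0.10 ± 0.28 (adjusted p = 0.837), with a 95% interval from -0.50 to 0.70. Its other probes gave 0.21 ± 0.26 and 0.23 ± 0.33.

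Per1, a clock gene with receptor elements in its regulatory DNA, had levels of 0.30, 1.05 and 1.93 at 8 Gy (lowest, median and highest) and of 0.34, 1.36 and 1.53 at 0 Gy. The log2 fold change was 0.03 ± 0.34 (adjusted p = 0.968, 95% interval -0.70 to 0.75). Klf9, for a zinc finger factor induced by the receptor, had levels of -3.06, -1.05 and -0.05 at 8 Gy and of -2.18, -1.65 and -0.31 at 0 Gy. The 8 Gy arrays of Klf9 reached beyond the 0 Gy arrays at both ends. Its log2 fold change was 0.25 ± 0.55 (adjusted p = 0.787, 95% interval -0.91 to 1.41), and its other probe gave 0.09 ± 0.48. Both intervals include rises and falls.

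Cebpd had levels of 6.11, 6.97 and 7.80 at 8 Gy (lowest, median and highest) and of 4.24, 4.60 and 6.96 at 0 Gy. The high 0 Gy value was that of replicate 5: without it, 6 of 6 arrays at 8 Gy lay above every 0 Gy array, and with it 3 of 6. The log2 fold change was 2.00 ± 0.47 (adjusted p = 0.0212, probe on chromosome 16 from 15431723 to 15431782, mm7), and 2.44 (adjusted p = 0.00115) without replicate 5. Cebpb had levels of 6.40, 6.60 and 7.13 at 8 Gy and of 4.93, 5.47 and 6.43 at 0 Gy. On 5 of 6 arrays at 8 Gy it lay above every 0 Gy array, and on 6 of 6 without replicate 5. Its log2 fold change was 1.10 ± 0.25 (adjusted p = 0.0182, chromosome 2 from 167483001 to 167483059, mm7), and 1.28 (adjusted p = 0.00215) without replicate 5. A second Cebpb probe gave 0.97 ± 0.34 (adjusted p = 0.0716). With all arrays kept, 0.82% of all genes had every 8 Gy array above every 0 Gy array, and none of these 8 genes did. The share without replicate 5 is not given here.

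Sgk1 encodes a kinase that regulates ion transport and is induced by glucocorticoids and mineralocorticoids. Its levels were 2.72, 3.15 and 3.59 at 8 Gy (lowest, median and highest) and 2.35, 2.71 and 3.28 at 0 Gy. The groups overlapped, with 2 of 6 arrays at 8 Gy above the 0 Gy arrays. The log2 fold change was 0.23 ± 0.23 (adjusted p = 0.506). Its other probe was well above background on 0 arrays.

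The calls for Cebpd and Cebpb turned on single arrays and on the scaling. Without 0 Gy replicate 1 neither passed (1.95 and 1.05, adjusted p = 0.0582 and 0.0525). Without 0 Gy replicate 2 or 8 Gy replicate 4 Cebpd did not pass (1.93 and 1.84, adjusted p = 0.0546 and 0.0508). Leaving out 0 Gy replicate 5 gave 3 of 8 genes, where 15.5% of all genes were called higher, 7.32% lower and 22.8% in either direction. With quantile normalization Cebpb had a log2 fold change of 0.62 and did not pass, and with normexp background correction neither passed (Cebpd 1.39, Cebpb 0.47). Of the 1630 genes called in all, 63.4% were higher, against 45.5% of 1145 with quantile normalization, 44.8% of 2066 with normexp and 45.1% of 1139 with the deposited table. Quantile normalization and the deposited table moved the median of all genes by -0.10.

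Slides and scan days held few arrays of both doses. On slide 3, which was also scan day 5, 2 arrays at 8 Gy and 1 at 0 Gy gave differences of 2.97 for Cebpd, 1.44 for Cebpb, 1.48 for Fkbp5 and 0.11 for Tsc22d3. The neutrophil score differed by 2.78 there. On scan day 7, 1 array at 8 Gy stood beside 0 Gy replicate 5, and the differences were 0.05, 0.26, 1.39 and -0.31 for the same genes and 0.79 for the score. With the slide as a block the log2 fold changes were 1.62 ± 0.82 for Cebpd and 1.00 ± 0.39 for Cebpb (adjusted p = 0.591 and 0.569). With the scan day as a block they were 1.59 ± 0.67 and 0.84 ± 0.33 (adjusted p = 0.261 and 0.255). With each of these blocks 0 genes of any kind passed, while 1166 and 2508 had an unadjusted p under 0.05.

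After 2 Gy, 0 of 8 genes passed in limma against 0 Gy, with 2 at an unadjusted p under 0.05. Of all genes 0.0591% passed, 8 in number (0.0295% higher and 0.0295% lower), and 2775 had an unadjusted p under 0.05. Fkbp5 had levels of 3.08, 3.32, 1.77, 2.79 and 3.49 on the 5 arrays at 2 Gy. Of these, 3 lay above every 0 Gy array, and the log2 fold change was 1.86 ± 0.59 (adjusted p = 0.136). Cebpd had levels of 6.13, 5.57, 5.31, 7.35 and 6.81 at 2 Gy and a log2 fold change of 1.33 ± 0.47 (adjusted p = 0.160). Cebpb had levels of 6.16, 5.25, 6.17, 6.23 and 5.91 and a log2 fold change of 0.38 ± 0.25 (adjusted p = 0.383). For both genes the 2 Gy and 0 Gy arrays overlapped, with 1 of 5 arrays at 2 Gy above every 0 Gy array for Cebpd and 0 of 5 for Cebpb.

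The remaining genes had log2 fold changes at 2 Gy of 0.25 ± 0.21 for Nr3c1, -0.22 ± 0.28 for Tsc22d3, -0.41 ± 0.34 for Per1, -0.34 ± 0.55 for Klf9 and 0.12 ± 0.23 for Sgk1. None passed. Without 0 Gy replicate 5, Cebpd (1.71, adjusted p = 0.0189) and Fkbp5 (2.25, adjusted p = 0.0229) rose at 2 Gy, 2 of 8 genes, where 4.23% of all genes were called higher, 2.95% lower and 7.18% in either direction. Cebpd then lay above the other 6 arrays at 0 Gy on 5 of 5 arrays at 2 Gy. With all arrays kept, 0.17% of all genes had every 2 Gy array above every 0 Gy array. That share without replicate 5 is not given here.

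Between 8 Gy and 2 Gy, 0 of 8 genes and 0% of all genes passed in limma, with 1 and 422 at an unadjusted p under 0.05. Cebpb had a difference of 0.72 ± 0.26 (adjusted p = 0.930) and Cebpd of 0.67 ± 0.50 (adjusted p = 0.930). Fkbp5 had a difference of -0.16 ± 0.62 (95% interval -1.47 to 1.16). The comparisons of 8 Gy and 2 Gy with 0 Gy share the 0 Gy arrays.

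How closely each gene followed neutrophil RNA was described by its slope on the neutrophil score, with dose and kit in the model. Cebpd had a slope of 1.04 (adjusted p = 4.94e-05), so it moved by 1.04 log2 units for each unit of the score. The median slope of the neutrophil markers was 1.03, which includes their own part in the score. Cebpb had a slope of 0.41 (adjusted p = 0.0242). Of all genes, 8.03% had a positive slope that passed and 1.82% a negative one.

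The other 6 slopes did not pass: 0.72 for Fkbp5, 0.38 for Tsc22d3, 0.34 for Sgk1, 0.18 for Nr3c1, 0.07 for Per1 and -0.68 for Klf9. The median slope was 0.36 over the 8 genes and 0.07 over all genes. Leaving out each array in turn, the slope of Cebpd passed in 18 of 18 fits and ran from 0.93 to 1.09. That of Cebpb passed in 15 of 18. It did not pass without 0 Gy replicate 4 (0.36, adjusted p = 0.0552), 0 Gy replicate 5 (0.34, 0.154) or 2 Gy replicate 4 (0.46, 0.0520). Without 2 Gy replicate 2 the slopes of Fkbp5 (0.92, adjusted p = 0.0482), Sgk1 (0.37, 0.0354) and Tsc22d3 (0.45, 0.0408) also passed. Without 0 Gy replicate 5 the slopes were 0.36 for Fkbp5 (adjusted p = 0.609), 0.50 for Tsc22d3, 0.48 for Sgk1 and 0.32 for Nr3c1, and none of these passed.

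Once dose and kit were removed, the residuals of Cebpd and of the neutrophil score correlated over the 18 arrays with r = 0.93. The same r was 0.77 for Cebpb, 0.70 for Sgk1, 0.60 for Tsc22d3, 0.51 for Fkbp5, 0.43 for Nr3c1, 0.08 for Per1 and -0.52 for Klf9. Brightness and slide were not removed and can also enter these correlations. The genes closest to Cebpd by residual correlation were Gsdme, Mmp9 and Stfa2 (r = 0.99, 0.98 and 0.98). Mmp9, the gelatinase of neutrophil granules, is itself on the marker list. Those closest to Tsc22d3 were Arl6ip1, Gna13 and Hmgn2 (r = 0.88, 0.88 and 0.87). Those closest to Cebpb were Plekhg3, Id1 and Blcap (r = 0.92, 0.87 and 0.86).

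For the others the nearest genes were Nudt17, Uxs1 and Sik1 for Per1 (r = 0.92, 0.80 and 0.76), and Epas1, Rhobtb1 and Plpp1 for Klf9 (0.93, 0.89 and 0.88). Sgk1 was closest to Nfkbiz, Map3k5 and Xpc (r = 0.93 each) and Nr3c1 to Eif2ak3, Cep83 and Ccnl2 (0.93, 0.92 and 0.91). Among the 8 genes themselves, residual correlations ran from -0.69 between Klf9 and Sgk1 to 0.72 between Sgk1 and Nr3c1. Fkbp5 and Tsc22d3, both textbook targets, had r = 0.31, and Fkbp5 and Per1 had r = 0.12.

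**Figure D3:**
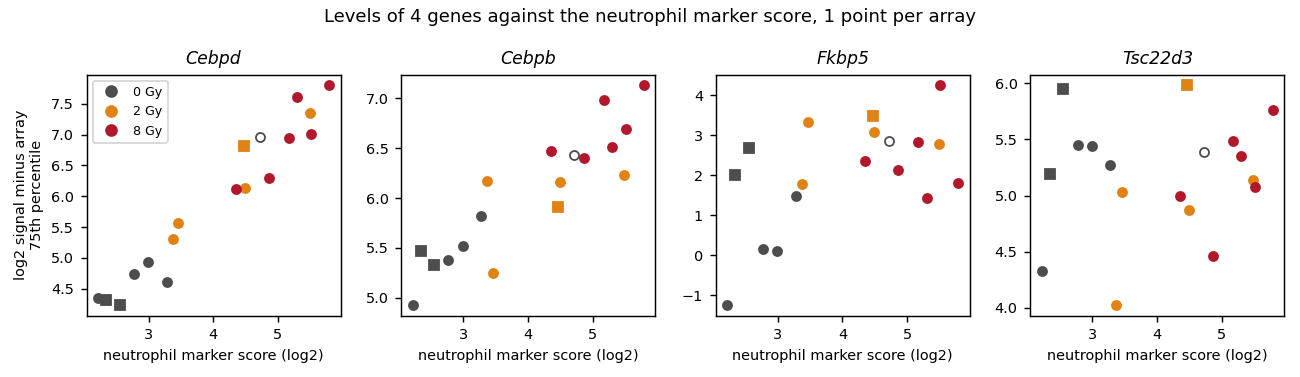
Levels of Cebpd, Cebpb, Fkbp5 and Tsc22d3 (log2 signal minus the array's 75th percentile) against the neutrophil marker score, 1 point per array, coloured by dose. Squares are PAXgene arrays and the open circle is 0 Gy replicate 5, which lies at a score of 4.72 among the irradiated arrays. Cebpd follows the score over all arrays. Tsc22d3 lies between 4.03 and 5.98. With dose and kit in the model its slope on the score was 0.38, which did not pass (limma adjusted p = 0.101).

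Set against the neutrophil score of the same array, Cebpd and Fkbp5 did not differ detectably between 8 Gy and 0 Gy. The difference of level minus score was -0.07 ± 0.32 for Cebpd (adjusted p = 0.830, 95% interval -0.74 to 0.60) and -0.37 ± 0.55 for Fkbp5 (adjusted p = 0.509, -1.51 to 0.77). The other 6 genes were lower relative to the score. Tsc22d3 had a log2 difference of -1.97 ± 0.41 (adjusted p = 0.000785), Per1 of -2.05 ± 0.54 (0.00211), Sgk1 of -1.84 ± 0.40 (0.000804) and Klf9 of -1.82 ± 0.81 (0.0398). Nr3c1 had -1.66 ± 0.44 (0.00229) and Cebpb -0.97 ± 0.38 (0.0226). Of all genes 90.7% were lower relative to the score, 0.162% higher and 90.9% either, with a median of -1.99, so 6 of 8 is near the share of genes at large.

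When 0 Gy replicate 5 was left out, 6 of 8 genes were lower, where 93.8% of all genes were lower, 0.214% higher and 94% either, and Cebpd had a difference of 0.01 ± 0.29 (95% interval -0.61 to 0.63). At 2 Gy the differences relative to the score were 0.09 ± 0.32 for Cebpd and 0.62 ± 0.55 for Fkbp5, which did not pass. Tsc22d3 (-1.46 ± 0.41, adjusted p = 0.0328), Per1 (-1.65 ± 0.54, 0.0331) and Sgk1 (-1.12 ± 0.40, 0.0365) were lower, 3 of 8, where 42% of all genes were lower, 0.103% higher and 42.1% either. The count was 6 of 8 when 0 Gy replicate 5 was left out, where 69.1% of all genes were lower, 0.14% higher and 69.3% either.

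With the score as a covariate in place of a subtraction, 0 of 8 genes and 0% of all genes passed at 8 Gy in limma, with 1 and 214 at an unadjusted p under 0.05. Cebpd had a log2 fold change of -0.16 ± 0.32, Cebpb of 0.25 ± 0.28 and Fkbp5 of 0.22 ± 0.83. Klf9, at 1.67 ± 0.77, was the gene with an unadjusted p under 0.05 (0.0457). Tsc22d3 had -0.68 ± 0.38, Sgk1 -0.47 ± 0.29, Per1 -0.11 ± 0.56 and Nr3c1 0.04 ± 0.31. Dose and kit accounted for 65.7% of the variance of the score, and the median standard error over all genes was 0.42 with the covariate and 0.30 without it. Much of the dose difference and of the score therefore cannot be told apart in this design. With 0 Gy replicate 5 also left out, the covariate gave 0.18 ± 0.42 for Cebpd, 1.29 ± 1.08 for Fkbp5, -0.90 ± 0.36 for Sgk1 and -1.04 ± 0.51 for Tsc22d3 at 8 Gy, and again none passed. At 2 Gy, 0 of 8 genes and 0% of all genes passed with the covariate (763 genes at an unadjusted p under 0.05), and Fkbp5 had 0.97 ± 0.65 and Tsc22d3 -0.69 ± 0.30. These were 1.69 ± 0.80 and -0.94 ± 0.37 (adjusted p = 0.447 and 0.414) when 0 Gy replicate 5 was left out, where 0 of 8 genes and 0.0517% of all genes passed (0.0443% higher and 0.00738% lower).

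**Figure D4:**
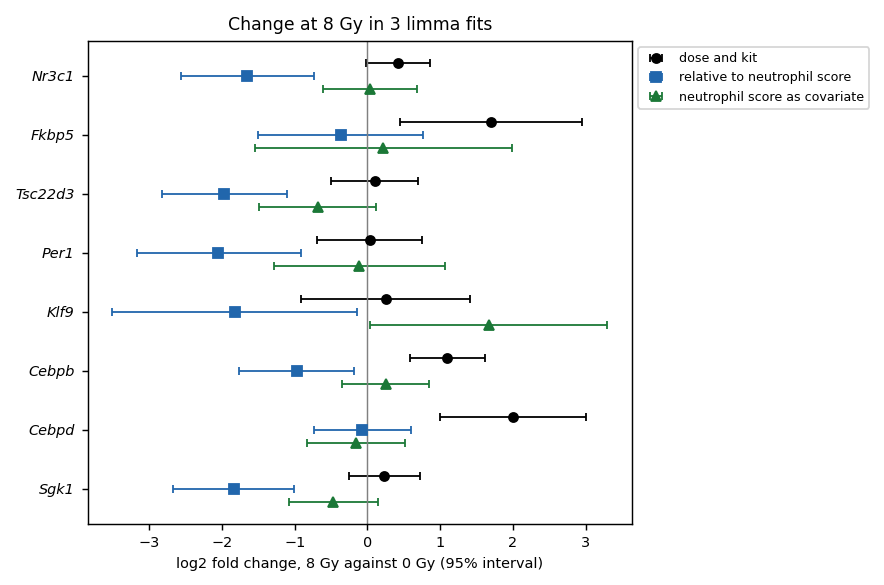
Log2 fold change of each gene at 8 Gy against 0 Gy with its 95% interval, in the fit with dose and kit (black circles), relative to the neutrophil score (blue squares) and with the score as a covariate (green triangles). Cebpd has 2.00 in the first fit and -0.07 and -0.16 in the others, and Tsc22d3 has 0.10, -1.97 and -0.68.

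Other genes known to be induced by glucocorticoids were counted from a list of 35. Among the 32 with a measurement, 7 passed as higher at 8 Gy and 0 as lower, leaving 25, where 7.63% of all genes were higher and 4.4% lower. The median was 0.79, against 0.08 over all genes. With quantile normalization 5 passed and the median was 0.35, with normexp 4 passed and it was 0.34, and with the deposited values 5 passed and it was 0.35. Crispld2, for a secreted protein that binds lipopolysaccharide, rose by 5.07 ± 0.91 (adjusted p = 0.00902). Its probe cleared background on 6 of 6 arrays after 8 Gy but on 5 of 7 after sham treatment. Il1r2, the decoy receptor of interleukin 1, rose by 4.05 ± 0.76 (0.00911), and Fpr1, the formyl peptide receptor of neutrophils, by 2.54 ± 0.54 (0.0140). Dusp1, a phosphatase that shuts off MAP kinases, rose by 2.06 ± 0.53 (0.0276), and Zfp36, which destabilises cytokine RNAs, by 1.18 ± 0.29 (0.0245). Ddit4, an inhibitor of mTOR signalling that is also a p53 target, rose by 1.04 ± 0.30 (0.0393). Tsc22d1 (1.01 ± 0.30, 0.0423) completes the count and was named after its values were seen.

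Slopes on the neutrophil score were 1.92 for Crispld2, 1.71 for Il1r2, 1.19 for Fpr1 and 1.00 for Dusp1. Of the 32 slopes 13 were positive and passed, where 8.03% of all genes had such a slope. The median slope was 0.34 over the 32 genes and 0.07 over all genes. Relative to the score at 8 Gy, 2 of the 32 genes were higher and 24 lower, where 0.162% of all genes were higher and 90.7% lower. The 2 were Crispld2 (2.99 ± 0.60, adjusted p = 0.000785) and Il1r2 (1.98 ± 0.45, 0.000952). Fpr1 (0.47 ± 0.34) and Dusp1 (-0.01 ± 0.40) did not pass, and Zfp36 (-0.89 ± 0.35, 0.0226), Ddit4 (-1.03 ± 0.42, 0.0277) and Tsc22d1 (-1.07 ± 0.38, 0.0142) were lower. With the score as a covariate 0 of the 32 passed, with 0 at an unadjusted p under 0.05, and Crispld2 had 1.09 ± 0.73 and Il1r2 0.51 ± 0.45. Among the genes of the list that did not pass were Mt2, a metallothionein (1.65 ± 1.07, adjusted p = 0.291), Txnip (0.24), Cxcr4 (0.00) and Il7r (-0.20). These 4 were named after their values were seen. The count of 7 became 13 if 0 Gy replicate 5 or 8 Gy replicate 1 was left out. Without 0 Gy replicate 5, 15.5% of all genes were called higher at 8 Gy. The count was 3 without any 1 of 0 Gy replicates 1 and 2 and 8 Gy replicates 4, 5 and 6. It was 4 without 0 Gy replicate 4, 2 Gy replicate 5 or 8 Gy replicate 3. The shares of all genes with these other arrays left out are not given here. At 2 Gy the count was 0 in limma, with 8 at an unadjusted p under 0.05, where 0.0295% of all genes were called higher. It was 6 without 0 Gy replicate 5, where 4.23% of all genes were called higher.

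Among genes that glucocorticoids are known to repress, those that passed were higher. Of 12 measured of 20 listed, 4 rose at 8 Gy and 0 fell, where 7.63% of all genes were higher and 4.4% lower, with a median of 0.63 (0.35 with normexp, and 4 passed there too). Icam1, the adhesion ligand of leukocyte integrins, rose by 1.04 ± 0.24 (adjusted p = 0.0187), and Il1b, for interleukin 1 beta, by 2.21 ± 0.52 (0.0210). The chemokine genes Ccl2 (3.31 ± 0.82, 0.0252, above background on all 6 arrays after 8 Gy and 4 of 7 after sham treatment) and Cxcl10 (1.63 ± 0.47, 0.0397) also rose. Cxcl2, which cleared background on 5 of 6 arrays after 8 Gy and 5 of 7 after sham treatment, had 2.11 ± 0.69 (0.0537), and Tnf had 0.71 ± 0.30 (0.117). The slope of Il1b on the neutrophil score was 1.15 (adjusted p = 2.81e-05), and those of Cxcl10 (0.45), Icam1 (0.31) and Ccl2 (0.23) did not pass. Relative to the score, 0 of the 12 were higher and 8 lower at 8 Gy, where 0.162% of all genes were higher and 90.7% lower. The median was -1.44 over the 12 genes and -1.99 over all genes. Icam1 was lower (-1.04 ± 0.41, adjusted p = 0.0239), while Il1b (0.13 ± 0.33), Cxcl10 (-0.45 ± 0.52) and Ccl2 (1.24 ± 0.84) did not pass. The mean log2 level over the 12 genes lay between 1.21 and 1.45 on the 8 Gy arrays and between -0.13 and 1.53 on the 0 Gy arrays, where the highest array was replicate 5 and the others reached 0.52. The count was 7 without 0 Gy replicate 5, where 15.5% of all genes were called higher. Leaving out 8 Gy replicate 2 or 6 gave 2, leaving out 0 Gy replicate 1 or 8 Gy replicate 4 gave 1, and leaving out 0 Gy replicate 2 gave 0.

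**Figure D5:**
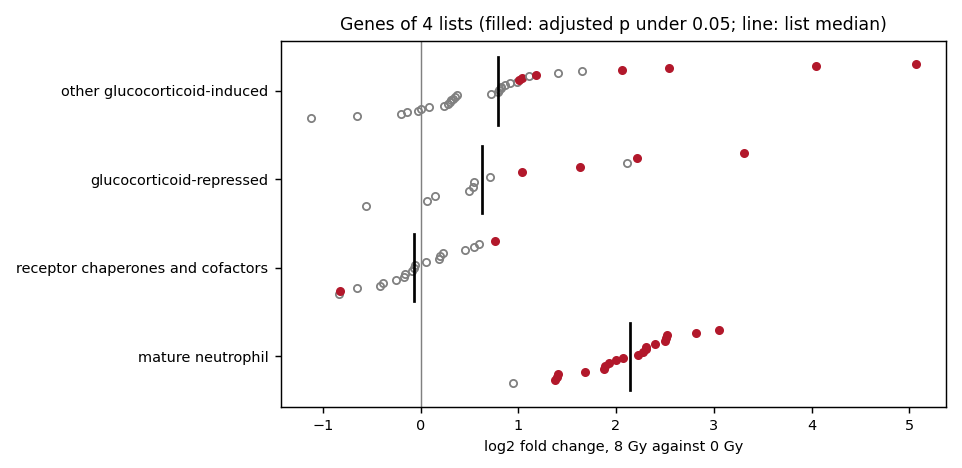
Log2 fold change at 8 Gy against 0 Gy of each measured gene of 4 lists, 1 point per gene. Filled points passed the threshold and the vertical bar is the median of the list: 0.79 for other induced genes, 0.63 for repressed genes, -0.07 for chaperones and cofactors and 2.14 for mature neutrophil markers.

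Of 19 measured chaperones and cofactors of the receptor 1 rose and 1 fell at 8 Gy, with a median of -0.07. This is close to the 12% of all genes called in either direction. Smarca4, the ATPase of the SWI/SNF chromatin complex, fell by 0.83 ± 0.19 (adjusted p = 0.0187), and Ncoa1, a coactivator of nuclear receptors, rose by 0.76 ± 0.21 (0.0354). The coactivator gene Crebbp had 0.60 (adjusted p = 0.154), and the co-chaperone genes Stip1 and Fkbp4 -0.38 (0.169) and -0.65 (0.200). The rise of Ncoa1 did not pass without any 1 of 0 Gy replicates 1 to 4 and 7, 2 Gy replicate 5 or 8 Gy replicates 2 to 6, and the fall of Smarca4 did not pass without 0 Gy replicate 2. Without 8 Gy replicate 1, 2 genes fell. Under quantile normalization 0 of the list rose and 2 fell, and with normexp 1 rose and 3 fell.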

How the data were processed

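Arrays were scanned and read with Agilent Feature Extraction 9.5.3.1, per the file headers. The deposited scanner files hold the processed signal of each spot as a linear intensity, background-subtracted by that software per the file headers. A deposited value table of the same arrays, also linear intensity, was used as an alternative only, after log2. Its columns have nearly equal medians (20.7 on each array, rounded), and its log2 values correlated with those of the processed signal at r = 0.9885 to 0.9999. How the authors made it is not given in the sources used here. Probe positions are those in the files (mm7), and the exon or UTR each probe lies in is not given here.

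Each array's values were log2 processed signal minus the array's 75th percentile. Control spots and spots marked as outliers (58 to 150 of 43379 per array) were left out, and the other spots of a probe were averaged. Among the averaged values, 45 were left out as outliers. A probe was kept if 5 or more of the 18 arrays read it as well above background, which held for 22038 of 41174. Names were updated through RefSeq by accession (22951 probes), symbol (6659) or older symbol (3109). For 1461 the file's own name stood, and 6994 were unnamed. The probe with the highest mean stood for a gene.

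limma 3.58.1 (R 4.3.3) was fitted with dose and kit over all genes, with Benjamini-Hochberg adjustment over 13545 genes and a threshold of 0.05. The same model was fitted to values minus the neutrophil score, and with the score as a covariate. Each ± in a fold change is a standard error. The code was tested on simulated data. Replicates are separate mice, 1 array each. The 9 genes and all lists were chosen with earlier results of these data known. Named genes were the 9 genes whatever their result, the 6 with the smallest p of each other glucocorticoid list, the 3 nearest by residual correlation to each measured gene, and up to 3 markers of a cell type list, and exceptions are stated. A gene that this rule names is not reported here. Alternatives covered scaling, background correction, filters, blocks, kit, covariates and each array left out.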

Additional observations from a re-analysis of the deposited data

Results flagged for a closer look

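Cebpd on 0 Gy replicate 5 had a level of 6.96, far above the nearest other 0 Gy array at 4.94. The gap was 0.74 of the range of the 7 arrays. It was the only 1 of 24 groups (8 genes at 3 doses) that stood out in this way, and chance alone marks about 1 group in 20. The same array had the neutrophil score of 4.72 and the Cdkn1a level of 1.28 given above.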

How the results depend on the processing

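The count of genes past the threshold at 8 Gy against 0 Gy, 2 of 8, was 2 with no filter, a stricter filter, no kit term or every probe tested on its own. It was 1 with quantile normalization and with the deposited value table. It was 0 with normexp, the slide, the scan day or the replicate number as a block, RiboPure arrays only, and brightness, the neutrophil score or the neutrophil and B cell scores as covariates. With each array left out in turn it ran from 0 to 3. The causes of these losses were not tested. The RiboPure setting has fewer arrays. Genes called in all numbered 1630, against 1145 with quantile normalization, 247 with the replicate block and 293 with RiboPure arrays only.

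Cebpd had a negative log2 fold change with the neutrophil score as a covariate (-0.16 ± 0.32) and with both scores (-0.31 ± 0.35). Neither passed, so no fall was found. The 29 other values of Cebpd over 31 settings were positive, and 20 passed. Fkbp5 was positive in 31 of 31 settings and passed in 1. Tsc22d3 (-0.68 to 0.25), Per1 (-0.32 to 0.24) and Klf9 (0.03 to 1.67) passed in 0 of 31.

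At 2 Gy the count of 0 ran from 0 to 2 with each array left out. Between 8 Gy and 2 Gy it was 0 throughout. Relative to the neutrophil score the count of 6 was 0 when slide or scan day was blocked, and ran from 5 to 6 with each array left out.

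Deviations of same-numbered arrays of different doses correlated with r from -0.34 to 0.48 over 16 pairs. Of these 8 exceeded 0.1, and the median was 0.10, against -0.02 for other pairs. Since not every pair exceeded 0.1 and no label ties the numbers to a shared source, the numbers were not taken to pair the mice. With the replicate block the counts were 0 at 8 Gy, 1 at 2 Gy and 0 between 8 Gy and 2 Gy (4 relative to the score), with 1.88 for Cebpd and 1.04 for Cebpb. Signal over background limits Klf9, Crispld2, Ccl2, Cxcl2 and Il5ra, which were not well above background on every array.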
